A study of Rattus norvegicus with 6 samples.

Results

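Provisional transcripts are genes that a database has numbered but not yet named. On the liver arrays analysed here they are the probe sets with a single gene symbol in the platform annotation made of LOC or RGD followed by digits: 1760 of the 68842 probe sets that were not controls. Of these, 1693 carried a LOC symbol and 67 an RGD symbol, for 1748 different symbols, 12 of which had 2 probe sets. The rule used the symbol alone and no measured value. Liver RNA came from 6 adult Sprague Dawley rats on regular chow, each hybridised to 1 Affymetrix rat transcriptome array. In 3 of them the father had been made hyperglycaemic by an injection of streptozotocin, a compound that destroys the insulin-producing beta cells of the pancreas, before mating with a healthy female (STZ-O). In the other 3 the father had received citrate buffer and had normal blood glucose (CB-O). All mothers were healthy, no offspring was itself injected, and 1 rat per litter was taken, with its sex left undistinguished. The fathers' hyperglycaemia follows from a toxin, and what streptozotocin does beyond the beta cell cannot be told apart from it in this design.

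A LOC symbol is given by NCBI when a transcript or open reading frame is predicted from the genome sequence, and an RGD symbol is the Rat Genome Database's equivalent. Such symbols gather 3 kinds of gene that are known to behave differently. Long non-coding RNAs (lncRNAs) are spliced RNAs without a recognised protein and are usually scarce and restricted to few tissues. Predicted coding genes include recent duplicates of enzyme families that are expanded in rodent liver, such as sulfotransferases, urinary proteins and cytochromes P450. Processed copies of abundant messenger RNAs, for example of ferritin or ribosomal protein genes, are short, and array probes against them can also bind the parent messenger.

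All 1760 probe sets were found in the RefSeq annotation of the rat assembly GRCr8, 1038 by Entrez number, 693 by the number inside the LOC symbol and 29 by synonym. RefSeq classed 1462 of them (83.1%) as lncRNA, 264 (15%) as protein-coding and 34 as pseudogenes. The median genomic span was 11496.5 bases for lncRNAs, 5371 for coding members and 2870.5 for pseudogenes. In RefSeq 1730 were still provisional, 30 had been renamed, and 25 of those names were used because the chromosome in the probe set identifier was that of the gene. No source used here names the genome build of the array. Positions below are those of RefSeq and not of the array probes.

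The sequences that bear on the results are given first. Capital letters in the following stretches of 30 transcribed bases mark part of a run of 34 identical bases that LOC100360087, the brightest member, and LOC102549852 shared with Ftl1l1, a copy of the ferritin light chain gene, whose protein forms the shell in which cells store iron. They lie on GRCr8 at chr5:151606506-151606535 (plus strand), chr1:153222938-153222967 (plus strand) and chrX:136687597-136687626 (minus strand).
LOC100360087: ctttggAGATCCCGAGGATCTGTATCTTGC
LOC102549852: ctttggAGATCCCGAGGATCTGTATCTTGC
Ftl1l1: ctttgaAGATCCCGAGGATCTGTATCTTGC

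The next windows run from 250 bases before to 50 bases after the annotated start of 6 lncRNAs: the brightest one (LOC102555913), 3 whose groups did not overlap (LOC102549099, LOC102553607 and LOC102548951), one beside Pdk4 (LOC102552448), and the most variable member (LOC102549537). Capitals mark each CG pair and each match, on either strand, to TATAAA (the TATA box), TGTTTAC (a forkhead factor core) or GAAA, 2 bases of any kind and GAAA (the core of the interferon-stimulated response element). On GRCr8 they are chr3:63506911-63507210 (plus strand), chr15:57602069-57602368 (minus strand), chr8:66363168-66363467 (minus strand), chr18:55698044-55698343 (minus strand), chr4:34547489-34547788 (plus strand) and chr8:44247771-44248070 (plus strand).
LOC102555913: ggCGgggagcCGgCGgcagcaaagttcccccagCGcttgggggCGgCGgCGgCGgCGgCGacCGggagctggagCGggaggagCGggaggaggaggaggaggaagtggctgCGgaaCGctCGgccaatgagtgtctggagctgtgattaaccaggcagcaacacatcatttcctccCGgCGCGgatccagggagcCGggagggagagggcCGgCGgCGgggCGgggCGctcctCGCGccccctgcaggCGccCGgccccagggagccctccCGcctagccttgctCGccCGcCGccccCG
LOC102549099: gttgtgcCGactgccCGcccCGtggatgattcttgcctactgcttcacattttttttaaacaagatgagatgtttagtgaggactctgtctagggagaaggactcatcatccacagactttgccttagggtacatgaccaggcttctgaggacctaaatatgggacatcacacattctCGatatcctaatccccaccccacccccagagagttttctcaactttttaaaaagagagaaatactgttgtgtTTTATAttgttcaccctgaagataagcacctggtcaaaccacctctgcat
LOC102553607: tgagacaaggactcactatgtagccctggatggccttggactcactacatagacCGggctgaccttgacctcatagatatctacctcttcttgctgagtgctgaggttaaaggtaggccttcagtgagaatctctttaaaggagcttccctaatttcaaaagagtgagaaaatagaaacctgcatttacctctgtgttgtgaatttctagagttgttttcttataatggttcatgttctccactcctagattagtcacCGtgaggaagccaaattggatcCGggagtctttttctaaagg
LOC102548951: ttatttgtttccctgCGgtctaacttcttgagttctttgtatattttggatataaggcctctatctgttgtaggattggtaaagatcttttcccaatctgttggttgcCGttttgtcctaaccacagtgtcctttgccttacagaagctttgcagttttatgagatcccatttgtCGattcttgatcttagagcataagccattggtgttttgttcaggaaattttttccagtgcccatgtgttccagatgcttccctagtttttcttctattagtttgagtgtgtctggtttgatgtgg
LOC102552448: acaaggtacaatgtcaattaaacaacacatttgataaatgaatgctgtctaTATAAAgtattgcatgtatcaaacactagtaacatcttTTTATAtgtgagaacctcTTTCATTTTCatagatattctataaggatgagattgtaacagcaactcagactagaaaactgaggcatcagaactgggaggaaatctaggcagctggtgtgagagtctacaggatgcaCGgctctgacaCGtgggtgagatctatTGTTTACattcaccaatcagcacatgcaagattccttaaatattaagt
LOC102549537: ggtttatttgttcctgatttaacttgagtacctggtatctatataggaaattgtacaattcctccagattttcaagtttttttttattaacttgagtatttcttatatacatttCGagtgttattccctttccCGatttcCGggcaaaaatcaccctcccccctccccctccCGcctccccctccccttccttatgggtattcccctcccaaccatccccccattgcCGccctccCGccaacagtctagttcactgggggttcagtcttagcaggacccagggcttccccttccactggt

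For Sult1c2a, the current name of RGD1562392, the 250 bases before the start are shown with the same marks, at chr9:7103203-7103452 (minus strand). The promoter and miRNA sequences are RefSeq's.
Sult1c2a: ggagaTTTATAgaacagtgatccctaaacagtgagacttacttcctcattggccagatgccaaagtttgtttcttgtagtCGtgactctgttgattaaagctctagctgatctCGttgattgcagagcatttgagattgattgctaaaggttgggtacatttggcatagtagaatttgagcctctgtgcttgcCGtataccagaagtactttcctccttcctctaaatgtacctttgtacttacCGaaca

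The windows differed most in CG pairs. LOC102555913 held 34 in 300 bases with 75.3% G or C, whereas the other 5 lncRNA windows held 2 to 6. LOC102552448 held 2 matches to TATAAA, 1 to TGTTTAC and 1 to the interferon-stimulated response element core, and LOC102549099 and Sult1c2a held 1 match to TATAAA each. No match to the motifs was found in the windows of LOC102553607, LOC102548951, LOC102549537 or LOC102555913. Among all 27457 promoter windows of the RefSeq table, 14.3% held TATAAA, 3.76% TGTTTAC and 3.77% the interferon-stimulated response element core.

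A promoter window was found for 1383 of the 1721 member genes whose chromosomes matched, and as a set these windows were poor in CG. Their median was 5 CG pairs per 300 bases against 15 for the 15635 genes with another symbol on the array, and 21.8% against 62.2% held 10 or more. TATAAA was present in 16.3% of the member windows and 11.7% of the others. Runs of 30 bases that recur in the windows of 10 or more other genes were found in 4.92% of the member windows, in 4.24% of all windows of the table and in 0.831% of those of genes with another symbol on the array. Within the lncRNAs, the 264 with 10 or more CG pairs had a median level of 5.46 and the 919 with fewer had 5.13 (log2). These are descriptions of annotated starts, which have not been mapped in these livers.

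Most provisional transcripts were no brighter than the median of the negative controls. The negative controls, 1153 probe sets that the array's identifiers mark as such, had a median value of 5.55 and a 95th percentile of 8.29 on the log2 scale. The brightest of them had a mean of 12.67, above the 12.03 of the brightest member, so the controls are not all without signal. The median over members was 5.28, with 5.22 for lncRNAs, 5.96 for coding members and 5.56 for pseudogenes, and it lay below the median of the negative controls on each of the 6 arrays. For the 21686 probe sets with another single symbol the median was 6.64. Above the negative-control median lay 38.5% of the members and 77.3% of the others. Brightness on an array depends on the probes as well as on the RNA, and a value below the controls does not show that a transcript is absent.

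**Figure D1:**
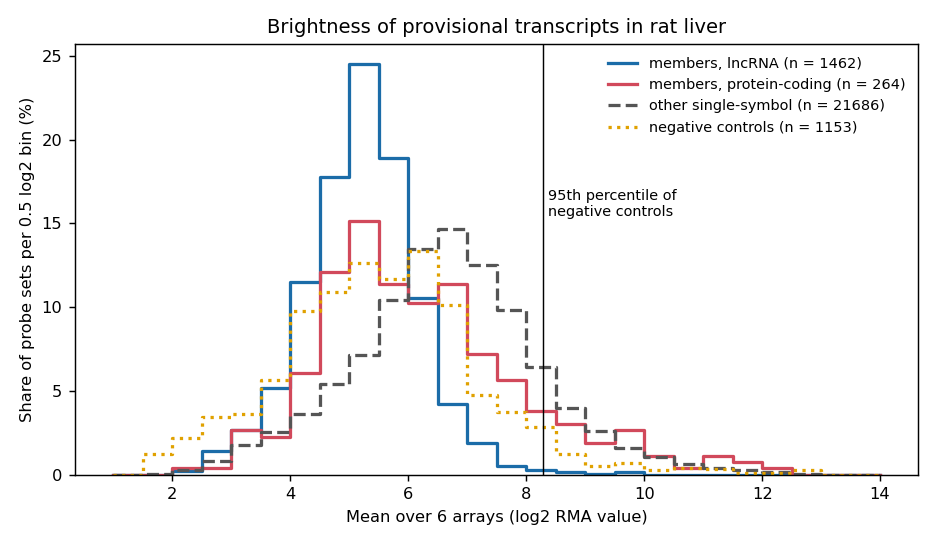
Share of probe sets (%, vertical axis) in bins of 0.5 of the mean log2 RMA value over 6 arrays (horizontal axis), for lncRNA members, protein-coding members, probe sets with another single symbol, and negative controls. The lncRNA members peak between 5 and 5.5, few of them reach the vertical line at the 95th percentile of the negative controls, and the coding members spread further to the right.

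Only 45 members (2.56%) had a mean above the 95th percentile of the negative controls, against 13.3% of the probe sets with another symbol. The classes differed: 36 of 264 coding members (13.6%) passed this level, close to the 13.2% of other coding probe sets, but only 6 of 1462 lncRNAs (0.410%) and 3 of 34 pseudogenes did. The last member above the line was LOC102553607 at 8.31 and the first below it was RGD1309350, now Urah, an enzyme of uric acid breakdown, at 8.28. Of the 45 bright members, 23 spanned fewer than 2000 bases, and 21 of these were coding. Per array, the share of members above that array's own 95th percentile was 2.67%, 2.56% and 2.67% in STZ-O and 2.56%, 2.78% and 2.44% in CB-O. The groups overlapped (exact two-sided permutation test, p = 1, the smallest possible p being 0.1). Above each array's own negative-control median lay 33.75%, 39.1% and 36.2% of members in STZ-O and 42.8%, 41.4% and 40.7% in CB-O. Here the groups did not overlap (means 36.4% and 41.6%, exact two-sided permutation test, p = 0.1, the smallest possible). Probe sets with another single symbol were separated likewise, with means of 76.0% and 78.4% (p = 0.1 by the same exact test), and the negative-control median itself was 5.58 to 5.66 on the STZ-O arrays and 5.45 to 5.55 on the CB-O arrays.

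The liver identity of the samples was clear from named genes: 8 of 9 measured hepatocyte markers were above the 95th percentile of the negative controls, and the mean over that list was 11.5 to 11.7 on each array. Summed into a list mean, Kupffer cell and macrophage markers were at 7.87 on STZ-O 3 and at 8.20 to 8.50 on the other arrays, and sinusoidal endothelial markers at 8.29 against 8.70 to 8.87. Lymphocyte, neutrophil, pancreas, muscle and fat markers had no member above the 95th percentile. The Y-linked list mean was 7.36 to 7.54 on all 6 arrays. Of its 5 genes, Ddx3y read 9.22 to 9.67 and Eif2s3y 8.38 to 8.67, while Usp9y had a mean of 3.40. No array therefore lacked Y-linked signal. The list mean of male-biased liver genes was 11.9 to 12.1, and that of female-biased ones 7.81 to 8.43. In whole tissue, fewer cells of a type and less RNA per cell cannot be told apart.

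The 2 brightest members, both coding and both spanning fewer than 2000 bases, differed little between the groups. LOC100360087 measured 12.08, 12.02 and 11.84 in STZ-O and 12.43, 12.02 and 11.82 in CB-O. LOC100362384 measured 11.95, 11.86 and 11.72 in STZ-O and 12.35, 11.99 and 11.75 in CB-O. LOC102549852, the third of this kind, ranged from 10.62 to 11.23. In all 3 the single highest value was CB-O 1, and the groups overlapped.

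Profiles of these 3 members across animals were near those of ferritin light chain genes, for 2 of them not of these alone. Likeness was measured as the root mean square difference, over 6 arrays, between the deviations of each probe set from its own mean, among 2886 bright probe sets with another symbol. The most alike profile was Ftl1l5 for LOC100360087 (0.04) and for LOC102549852 (0.05), and Ftl1 for LOC100362384 (0.06), on the log2 scale. For LOC100360087 the next were Ftl1 (0.05) and Ftl1-ps5 (0.06). Genes outside the ferritin family came almost as near to the other 2: Ttc38 (0.06) for LOC100362384, and Ubl7 and Babam2 (0.05 each) for LOC102549852. Over 6 arrays this measure does not single out ferritin for those 2. Ftl1 itself read 10.87, 10.74 and 10.71 in STZ-O and 11.22, 10.79 and 10.60 in CB-O, with the same highest array. The run of bases shared with Ftl1l1, printed above, belongs to LOC100360087 and LOC102549852, while LOC100362384 shared no run of 20 bases with a named gene in its first 50. Values of near-identical copies cannot be assigned to 1 locus.

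**Figure D2:**
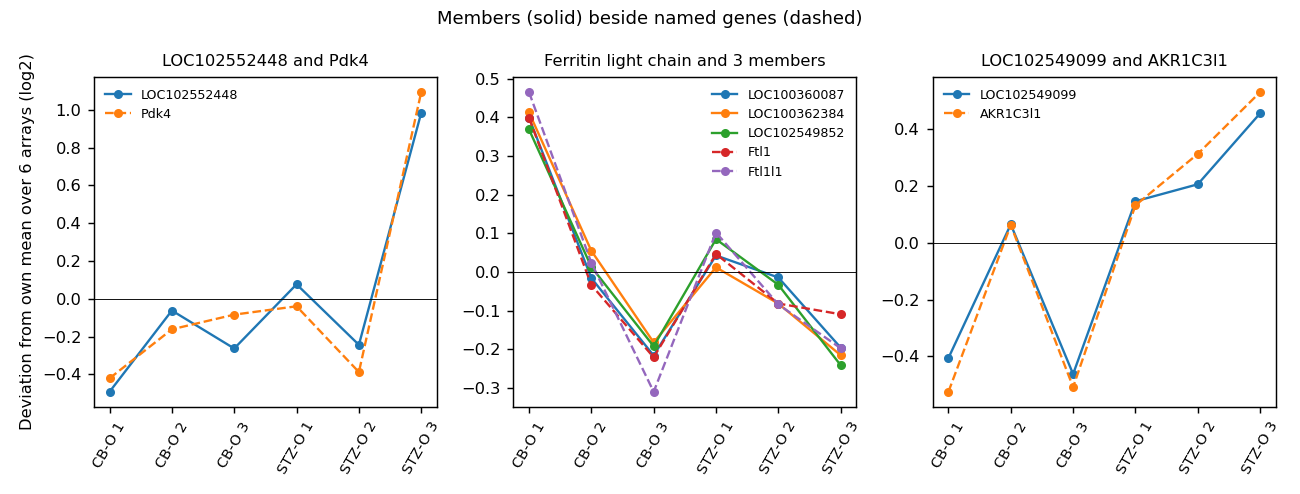
Deviation of each probe set from its own mean over 6 arrays (log2, vertical axis) on each array (horizontal axis). Solid lines are provisional members and dashed lines named genes; lines only join the values of 1 gene. LOC102552448 and Pdk4 are both highest on STZ-O 3, the ferritin group is highest on CB-O 1, and LOC102549099 and AKR1C3l1 are both lowest on CB-O 1 and CB-O 3.

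Other members shared first bases with named genes, and those named here are bright except LOC689481. LOC100360095, at 11.03 to 11.43, shared 25 with Rup2, a urinary protein gene. LOC100911252 shared 35 with Ppia, which encodes the prolyl isomerase cyclophilin A, and LOC102553078 shared 20 with Fau, whose product yields ribosomal protein S30. LOC100364427 shared 27 and LOC689481 39 with Rps12l2, a copy of the gene for ribosomal protein S12. Across all members with a promoter window, 52 of 1383 (3.76%) shared a run of at least 20 of the first 50 transcribed bases with a named gene, 26 of 200 coding members (13%) and 26 of 1183 lncRNAs (2.20%). Among the 30 bright members with a window it was 6.

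LOC100911718 lies next to the pseudogene Cyp2c6_v1-ps3 on chromosome 1. Cytochromes P450 of the 2C family oxidise drugs and steroids in hepatocytes. It measured 11.86, 11.88 and 12.10 in STZ-O and 11.60, 11.69 and 11.85 in CB-O. Every STZ-O array was above every CB-O array, by a small margin. The difference was 0.23 ± 0.10 (SE) log2, or 1.18-fold, with an unadjusted p of 0.048 and an adjusted p of 0.933 (limma). Without STZ-O 3 it was 0.16. The most alike named profile was Hmgn1 (0.04), followed by Cyp2c6v1 and Ddx6-ps2 (0.05 each), so the measure does not single out a cytochrome. Cyp2c6v1 itself differed by 0.16 ± 0.09 (unadjusted p = 0.114, limma), with overlapping groups.

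The other members among the 15 brightest did not separate the groups. LOC100910017 ranged from 11.41 to 11.54, the pseudogene RGD1560017 from 11.34 to 11.43, and LOC100912132 from 11.05 to 11.28 across the 6 arrays. LOC100359876, LOC102555453, LOC102550734, LOC100364335, LOC100359916 and LOC100360491 had means of 10.42, 10.40, 10.11, 9.93, 9.89 and 9.84. LOC100364335 was more variable, from 9.65 to 10.15, as was LOC100359876, from 10.25 to 10.57. Of these 9, none had an unadjusted p under 0.05. Their groups overlapped in each case.

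Of the 6 bright lncRNAs, LOC102555913 was the brightest and the steadiest, at 9.74, 9.83 and 9.84 in STZ-O and 9.75, 9.82 and 9.88 in CB-O. It is the one whose window above is dense in CG pairs. LOC102552001, at a mean of 9.53, overlaps Trpm3, a cation channel gene. LOC102546489 had a mean of 9.45. LOC102551552, at 8.60, overlaps Pipox, which encodes a peroxisomal oxidase of sarcosine and pipecolic acid, on the opposite strand. Its most alike named profile was Acaa1b (0.04), a peroxisomal thiolase gene, followed by Pls1 (0.06) and Slc17a1 (0.07). Pipox itself was less alike (0.14). A link to peroxisomes was not tested. The last of the 6 are LOC102549099 and LOC102553607, described below.

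No member passed the test for a difference between STZ-O and CB-O. In the limma fit over all 68842 probe sets, 0 of 1760 members had an adjusted p under 0.05 (background 0%), and the smallest was 0.431. At an unadjusted p under 0.05 there were 79 members, 43 higher and 36 lower in STZ-O. That is 4.49% of members beside a background of 5.34%, with 2.8% higher and 2.54% lower among all probe sets, so the members' share was near the background. Groups did not overlap in 167 members (9.49%), beside 10.1% of all probe sets. Of the 167, 74 lay higher in STZ-O, where the background was 4.76%, and 93 lower, where it was 5.35%. The median difference was -0.006 over members and -0.004 over all probe sets.

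**Figure D3:**
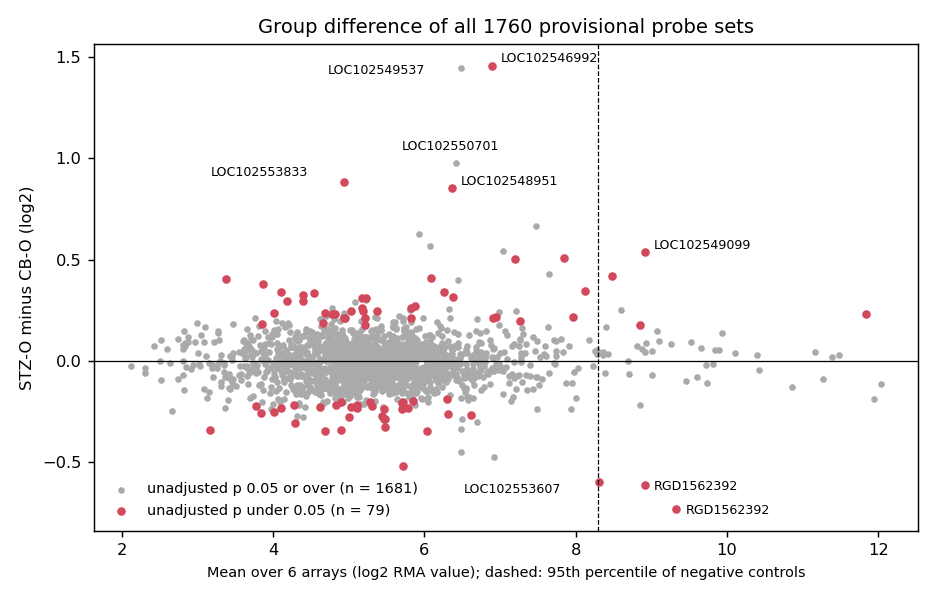
STZ-O minus CB-O difference (log2, vertical axis) against the mean over 6 arrays (log2, horizontal axis) for the 1760 member probe sets, with the 79 at an unadjusted p under 0.05 in red. The dashed line is the 95th percentile of the negative controls, and the differences of over 0.8 in size all lie to its left.

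By class, 60 of 1462 lncRNAs (4.10%), 16 of 264 coding members (6.06%) and 3 of 34 pseudogenes had an unadjusted p under 0.05. Among the 45 bright members 7 did, 4 higher and 3 lower, beside 5.09% of the 7031 bright probe sets (3.84% higher and 1.25% lower). Those 7 were LOC102549099, RGD1309362, LOC100911718 and LOC102553078 on the high side and both probe sets of RGD1562392 and LOC102553607 on the low side. The count supports nothing about the bright members, since 2 of the 7 passed the brightness line only through the group where they were higher: LOC102553607, with means of 8.01 in STZ-O and 8.60 in CB-O, and RGD1309362, with 8.68 and 8.26. A further 2 of the 7 measure the same gene. Groups did not overlap in 9 of the 45, beside 14% of bright probe sets, with 5 higher (background 6.61%) and 4 lower (background 7.42%). The other 26 probe sets named by rule lay between -0.22 and 0.25. Past 1.5-fold lay 10 members (0.568%) beside 0.354% of all probe sets, 7 higher and 3 lower, and 6 of the 10 had an unadjusted p under 0.05.

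LOC102546992, a lncRNA of chromosome 7, had the largest difference of all members and the smallest p. It measured 7.22, 7.99 and 7.65 in STZ-O and 6.11, 6.34 and 6.04 in CB-O. All STZ-O arrays were above all CB-O arrays, with a gap wider than the spread within either group. The means were 7.62 ± 0.38 and 6.17 ± 0.16 (SD, n = 3 each). The difference was 1.46 ± 0.18 (SE) log2, or 2.74-fold, with an unadjusted p of 4.38e-05 and an adjusted p of 0.431 (limma). Leaving out 1 array at a time gave 1.27 to 1.65. Its mean of 6.89 was below the 95th percentile of the negative controls.

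In RefSeq LOC102546992 overlaps a second provisional lncRNA, LOC100912143, and the pair sits between Ndufa13-ps1 and Eea1, the gene of an early endosome tether. LOC100912143 measured 8.25, 8.24 and 8.39 in STZ-O and 7.88, 7.79 and 8.19 in CB-O. Its groups did not overlap either, with CB-O 3 the closest to STZ-O. The difference was 0.34 ± 0.11 (SE), with an unadjusted p of 0.0161 and an adjusted p of 0.889. Eea1 on the far side read 7.89, 7.97 and 8.13 in STZ-O and 7.84, 8.09 and 7.89 in CB-O, with overlapping groups. Nudt4, a further named gene of chromosome 7 measured as a neighbour, had every STZ-O array above every CB-O array. It read 9.78, 9.94 and 9.80 in STZ-O and 9.57, 9.63 and 9.67 in CB-O. Its difference was 0.22 ± 0.08 (SE), with an unadjusted p of 0.0213 and an adjusted p of 0.911 (limma).

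**Figure D4:**
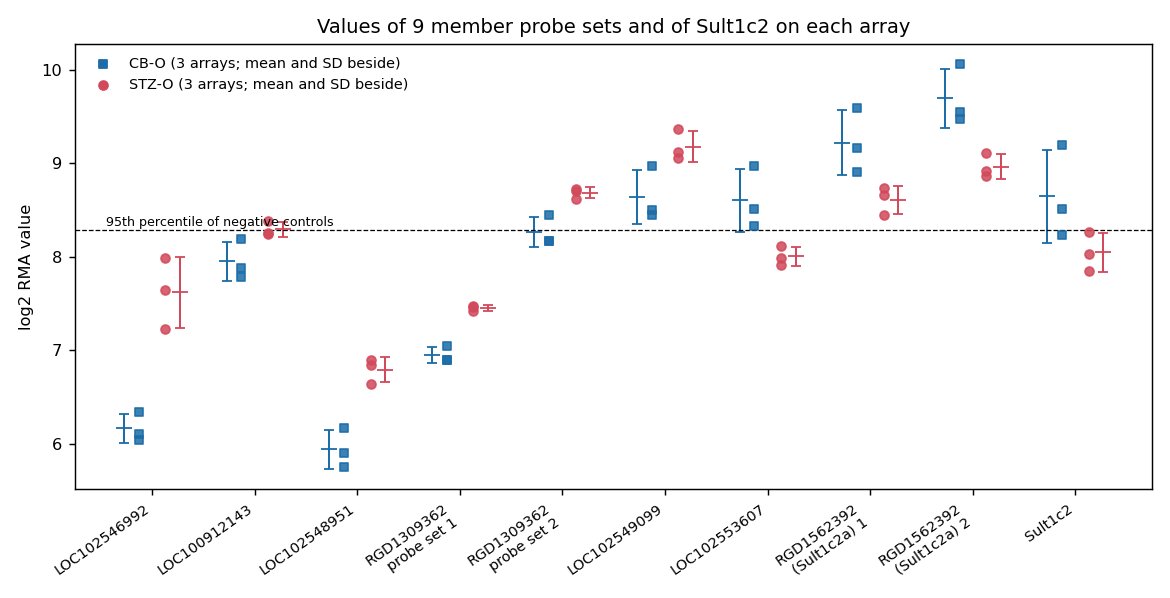
Log2 RMA value (vertical axis) on each array for 9 member probe sets and the named gene Sult1c2. Circles are STZ-O and squares CB-O (3 arrays each), and bars beside them show mean and SD. In each of the 9 member probe sets the groups do not overlap, with STZ-O above in 6 and below in LOC102553607 and both RGD1562392 probe sets.

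RGD1309362 and LOC102548951 lie near Ifgga2l1, an interferon-gamma-inducible GTPase gene of chromosome 18, and neither passed the adjusted test. LOC102548951 was chosen after its values were seen. In mouse, GTPases of this family are induced by interferon-gamma and act against intracellular microbes. RGD1309362, a coding member separated by 1 locus from Ifgga2l1, had 2 probe sets. The second was named by rule, through its moderated t and SD, and the first was chosen after its values were seen. The first measured 7.46, 7.47 and 7.42 in STZ-O and 7.04, 6.90 and 6.90 in CB-O. The second measured 8.62, 8.73 and 8.71 in STZ-O and 8.45, 8.18 and 8.16 in CB-O. Both had every STZ-O array above every CB-O array.

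The differences were 0.50 ± 0.07 (SE, unadjusted p = 0.000141, adjusted p = 0.558) and 0.42 ± 0.10 (unadjusted p = 0.00244, adjusted p = 0.806). LOC102548951, a lncRNA on the other side of RGD1309362 and also separated from it by 1 locus, measured 6.84, 6.64 and 6.90 in STZ-O and 6.17, 5.90 and 5.75 in CB-O. Its groups did not overlap, and the difference was 0.85 ± 0.12 (SE), or 1.81-fold (unadjusted p = 0.000105, adjusted p = 0.558). Ifgga2l1 read 9.13, 9.09 and 8.87 in STZ-O and 8.93, 8.16 and 8.49 in CB-O, with overlapping groups and a difference of 0.50 ± 0.18 (unadjusted p = 0.0226), or 0.32 without CB-O 2. Of its relatives, Ifgga2l2 differed by 0.10 ± 0.09 and Ifgga4l by -0.01 ± 0.11, while Irgm differed by 0.32 ± 0.11 (unadjusted p = 0.0178, limma) with every STZ-O array above every CB-O array. These genes can share hybridisation, so which relative each probe set measures is uncertain.

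RGD1562392, now Sult1c2a, was the member with the lowest difference. Sulfotransferases of this family attach sulfate to phenols, hydroxylamines and steroids, which makes them soluble for excretion. Its first probe set measured 8.73, 8.45 and 8.66 in STZ-O and 9.16, 9.60 and 8.91 in CB-O. Its second measured 9.11, 8.87 and 8.92 in STZ-O and 9.55, 10.06 and 9.48 in CB-O. Every STZ-O array lay below every CB-O array in both, and CB-O 2 was the highest.

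The differences were -0.61 ± 0.17 (SE, unadjusted p = 0.00676, adjusted p = 0.846) and -0.73 ± 0.15 (unadjusted p = 0.00156, adjusted p = 0.801). Sult1c2 was the most alike of the 2886 named profiles for both probe sets (0.10 and 0.14). It read 8.27, 7.85 and 8.03 in STZ-O and 8.52, 9.19 and 8.23 in CB-O. Its difference was -0.60 ± 0.23 with overlapping groups, and -0.33 without CB-O 2. A profile this alike over the same arrays has a like difference by construction, so it is no separate support. Further genes of the family were nearer to 0: Sult1c2al1 differed by -0.16 ± 0.09 and Sult1c3 by 0.07 ± 0.07.

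LOC102549099, a bright lncRNA near Tpt1 on chromosome 15, measured 9.06, 9.12 and 9.37 in STZ-O and 8.51, 8.98 and 8.45 in CB-O. The groups did not overlap, and CB-O 2 came closest. The difference was 0.54 ± 0.15 (SE), or 1.45-fold (unadjusted p = 0.00746, adjusted p = 0.846). Its most alike named profile was AKR1C3l1 (0.07), an aldo-keto reductase gene, which differed by 0.65 ± 0.17. That gene was found by its likeness over the same 6 arrays, so a like difference follows from the choice and is no support. LOC102552389, a lncRNA on the other side of Tpt1, went the other way in value: it measured 6.07, 6.36 and 6.12 in STZ-O and 6.50, 6.38 and 6.46 in CB-O. Its difference was -0.26 ± 0.09 (unadjusted p = 0.0232, adjusted p = 0.920).

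LOC102553607, a lncRNA that overlaps Ptpn9, the gene of a tyrosine phosphatase, on the opposite strand, measured 7.99, 8.12 and 7.91 in STZ-O and 8.97, 8.51 and 8.33 in CB-O. No arrays overlapped. The difference was -0.60 ± 0.16 (SE), or 1.51-fold lower (unadjusted p = 0.00519, adjusted p = 0.832). It counts as bright only through CB-O, since its STZ-O mean of 8.01 was under the threshold. Ptpn9 read 6.84, 6.84 and 6.80 in STZ-O and 6.61, 6.64 and 6.61 in CB-O, a difference of 0.20 ± 0.07 in the other direction (unadjusted p = 0.0150).

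That pair was the only one with both at an unadjusted p under 0.05 among members that overlap a named coding gene. Of 421 such members with a measured partner, forming 449 pairs, 13 pairs had the member under it (limma). The coding gene was under it too in 1 of these 13, with opposite sign. Over all probe sets 5.34% had such a p, so these counts show nothing particular to overlapping genes. LOC102555308, which overlaps Capn2, a calpain protease gene, differed by 0.34 ± 0.08 (unadjusted p = 0.00214), while Capn2 differed by -0.06. LOC102552452 differed by -0.27 and its partner Elavl1, which encodes an RNA-stabilising protein, by 0.02, and LOC102549184 by 0.38 with its partner Caprin1 at 0.03.

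Further members at an unadjusted p under 0.05 were dim. LOC102553833, beside the cadherin gene Fat3, measured 5.17, 5.81 and 5.16 in STZ-O and 4.62, 4.40 and 4.46 in CB-O, all below the median of the negative controls except STZ-O 2. Its difference was 0.89 ± 0.17 (unadjusted p = 0.000924, adjusted p = 0.801). LOC102549313 differed by -0.32 ± 0.08 (unadjusted p = 0.00418) and the pseudogene LOC689816 by 0.21 ± 0.07 (unadjusted p = 0.0133). LOC102552355 measured 7.78, 8.14 and 8.36 in STZ-O and 7.35, 7.48 and 7.92 in CB-O, which overlap. LOC102553013, next to St8sia3, a sialyltransferase gene, differed by -0.52 ± 0.20 (unadjusted p = 0.0340), and by -0.31 without CB-O 1.

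The median SD over the 6 arrays was 0.112 for members and 0.118 for all probe sets, and 11 of 1760 members exceeded 0.5, beside 331 of 68842 probe sets. All 11 were lncRNAs, and in 2 of them, LOC102546992 and LOC102553833, the groups lay apart. LOC102549537 had an SD of 2.27, the highest of all 68842 probe sets. It measured 8.54, 8.61 and 4.47 in STZ-O and 8.51, 4.19 and 4.57 in CB-O. The values fell into a high and a low level, 3 arrays at 8.51 to 8.61 and 3 at 4.19 to 4.57, with both groups holding both.

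LOC102549537 lies between Pdzd4-ps2 and Pate14l1 on chromosome 8. The window printed for it shares a run of 30 bases with the windows of 67 other genes, against 0 to 3 for the other 5 lncRNAs printed. Such a run is not particular to it: the bright lncRNA LOC102551552, with an SD of 0.20, shares one with 46. Among lncRNA members with a run found in 10 or more other windows the median SD was 0.120, beside 0.112 in those without.

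**Figure D5:**
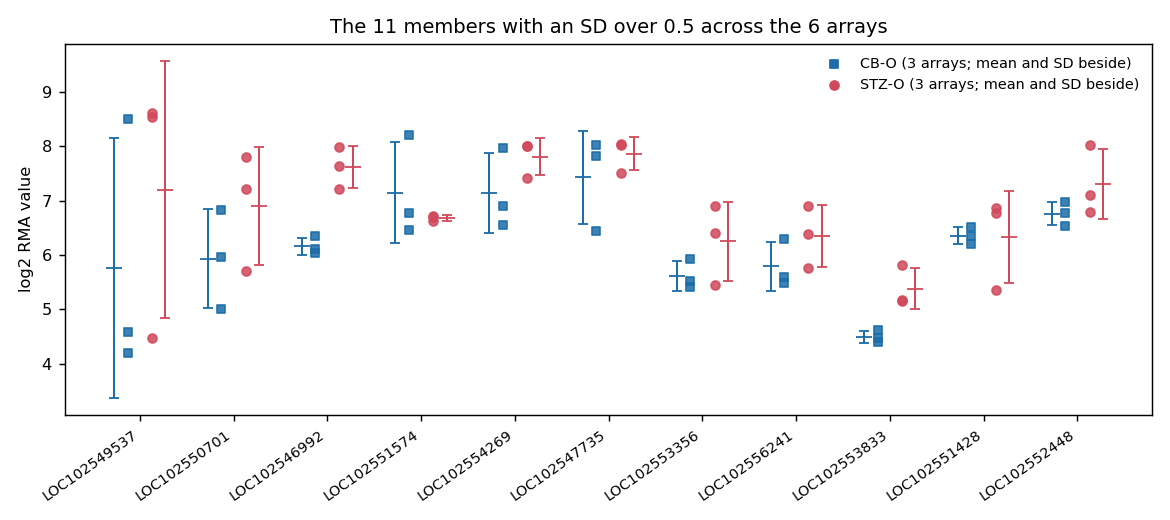
Log2 RMA value (vertical axis) on each array for the 11 members with an SD over 0.5 across the 6 arrays, in order of falling SD. Circles are STZ-O and squares CB-O, with mean and SD beside them. LOC102549537 falls into a high and a low level in both groups, and the groups do not overlap in LOC102546992 and LOC102553833.

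LOC102550701 had the next SD (1.04), at 7.80, 5.70 and 7.22 in STZ-O and 5.97, 6.82 and 5.0 in CB-O, with overlapping groups. Its span contains the gene of miR-138-1 on the opposite strand, whose mature product is printed with its seed, bases 2 to 8, in capitals (chr8:131178456-131178478 (plus strand)).
rno-miR-138-5p: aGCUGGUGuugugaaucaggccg
The probe set for Mir138-1 itself measured 5.42, 5.93 and 5.74 in STZ-O and 6.04, 5.42 and 5.77 in CB-O. Its order across animals was not that of LOC102550701.

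LOC102551574, whose span contains Mir30b and Mir30d, was high on CB-O 3 only, at 8.21 against 6.46 to 6.78 on the other 5 arrays. Mir30b was also highest there, at 4.51 against 3.75 to 4.14, and Mir30d was lowest there, at 5.34. In all, 11 members contained or overlapped a miRNA gene. Their means ran from 3.12 to 7.18, so none was bright, and 0 of the 11 had an unadjusted p under 0.05 (limma; 0 adjusted). Among them were LOC102548505 with Mir675, LOC102553043 with Mir210, LOC102555052 with Mir342 and LOC100911992 with Mir9-1, which differed by 0.02, -0.11, -0.13 and -0.08. The 11 were matched to miRNA genes by span without regard to strand. LOC102550701 lies opposite its miRNA gene, so these members need not be miRNA precursors. Their values are not levels of mature miRNA.

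LOC102552448, a lncRNA of chromosome 4, lies next to Pdk4 on the opposite strand, with the ends of both facing each other. Pdk4 encodes a kinase that shuts off the pyruvate dehydrogenase complex and so spares glucose, and it is known to be induced by fasting and in diabetes. LOC102552448 measured 7.11, 6.79 and 8.02 in STZ-O and 6.54, 6.97 and 6.77 in CB-O. Pdk4 measured 8.0, 7.65 and 9.13 in STZ-O and 7.62, 7.88 and 7.96 in CB-O. Both were highest on STZ-O 3, and their deviations differed by 0.12 (root mean square). The groups overlapped for both, with unadjusted p of 0.0903 and 0.217 (limma). STZ-O 3 is also the array with the lowest Kupffer and endothelial marker levels given above, and their part in the result was not tested.

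LOC102554269, which overlaps Tmcc3, measured 8.0, 8.02 and 7.41 in STZ-O and 7.98, 6.90 and 6.55 in CB-O, with CB-O 1 inside the STZ-O range. LOC102547735, within Npas3, was at 7.51 to 8.04 on 5 arrays and at 6.45 on CB-O 3. Tmcc3 itself stayed between 6.53 and 6.78. In none of these did the groups separate.

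The 25 probe sets whose gene has a current name had a median level of 6.20, and 2 were bright, both of Sult1c2a. An unadjusted p under 0.05 was found for 3 of the 25, where 5.34% of all probe sets had one, and 2 of the 3 measure the same gene: they were the Sult1c2a pair and RGD1309903, now Arfgef3, a relative of the guanine exchange factors of ARF proteins. Arfgef3 measured 7.07, 7.02 and 6.97 in STZ-O and 6.81, 6.77 and 6.84 in CB-O, a difference of 0.21 ± 0.07 (unadjusted p = 0.0171). RGD1309350, now Urah, measured 8.46, 8.17 and 8.30 in STZ-O and 8.09, 8.48 and 8.20 in CB-O, with overlapping groups. RGD1563888, RGD1305422 and RGD1561431, now C11h21orf91, Rubcn and Hoxa3, had means of 7.59, 7.12 and 6.15 and differences between -0.07 and 0.07.

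Where a symbol had 2 probe sets, they could be set against each other. The pairs of RGD1309362 and RGD1562392 differed between the groups by values within 0.08 and 0.12 of each other. LOC100909911, a bright coding member, gave 0.09 from both probe sets. For the other 9 symbols no probe set had an unadjusted p under 0.05 (limma). The 2 differences had opposite signs in LOC100362820, LOC102546835, LOC102554932, RGD1562811 and RGD1564887, and the same sign in the rest of them.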

How the data were processed

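RNA from 6 livers (3 STZ-O, 3 CB-O) was hybridised to 1 array each, and the number of arrays limits the precision. The authors deposited log2 values made by RMA in Affymetrix Expression Console 1.4.1, per the submitters' processing notes; no dye, batch or scan date was used. RMA scales arrays to a common distribution, so a shift of all RNAs would not be seen. From the deposited values, limma 3.58.1 (R 4.3.3) was fitted to all 68842 probe sets other than controls, and p-values were adjusted over all of them by Benjamini-Hochberg. Each p is two-sided, and the fit was tested on simulated data. A probe set was called bright when its mean over 6 arrays passed the 95th percentile of the negative controls.

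Members, gene lists and the likeness measure were chosen with earlier results of these data known. Named by rule were the 15 brightest members, the 12 highest and 12 lowest bright members by moderated t, the 10 bright members with the largest SD, and bright members in liver enzyme and secreted protein families; other members, the motifs and the sequences were chosen after their values were seen. Sequences, gene classes and neighbours come from RefSeq (GRCr8). Replicate numbers do not pair the samples: same-numbered arrays' deviations correlated at 0.051, -0.099 and 0.009. Labels state 1 rat per litter, and p-values measure the spread between these animals. Python 3.11.15 with scipy 1.17.1 gave the exact permutation tests.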

Additional observations from a re-analysis of the deposited data

How the results depend on the processing

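Under each alternative run (replicate block, intensity trend with robust variances, array weights, dim probe sets left out, 1 probe set per gene, no moderation, median centring, Y-linked level as covariate, RefSeq membership, and leaving out each array), 0 members passed an adjusted p of 0.05 in limma. All 239 recomputed values of the 18 named differences kept their direction and their side of the adjusted threshold. The replicate block, intensity trend, no moderation and probe set filter runs leave each difference as it was, so its direction could not change there. The 18 were named members with an unadjusted p under 0.05, and no member's adjusted p in the main fit was below 0.431 (limma). Keeping both is therefore no evidence of stability. With dim probe sets left out, 45 members remained in the fit, 4 higher and 3 lower at an unadjusted p under 0.05, with 9 whose groups did not overlap and a median difference of 0.033. Of all 7031 probe sets in that fit, 6.39% had an unadjusted p under 0.05 (limma) and 14% had groups that did not overlap. With 1 probe set per gene there were 55 higher and 55 lower, 6.29% of 1748 members beside 5.68% of the 22093 probe sets fitted. Leaving out 1 array at a time gave 32 to 52 higher, 27 to 48 lower and medians from -0.021 to 0.003. In these fits 3.75% to 4.83% of members had an unadjusted p under 0.05 (limma), beside 4.90% to 5.73% of all probe sets. The groups did not overlap in 330 to 384 members, which fewer arrays make likelier by construction, and the share over all probe sets was not counted. The mean share of bright members per array was 0.464% above the 99th percentile of the negative controls, 39.0% above their median, and 2.42% with membership by the current RefSeq symbol. With the replicate number as a block, 44 members were higher and 29 lower at an unadjusted p under 0.05, against 43 and 36 without it. That was 4.15% of members beside 5.42% of all probe sets in the block fit. The median was -0.006, and LOC102553078 moved from an unadjusted p of 0.0479 to 0.0794 (limma). In either fit 0 members passed the adjusted threshold. With 3 arrays per group and most members no brighter than the median of the negative controls, small differences of dim transcripts were not detectable.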
